A study of Homo sapiens with 21 samples.

Results

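The RNA sites of FUBP3 were compared between 2 ways of making a PAR-CLIP library, which are 2 of the 21 samples of the series. One library was made by the fluorescent protocol (fPAR-CLIP) with RNase I at 0.5 U/ul, and the other by the radiolabel protocol with RNase T1 at 0.5 U/ul. A cluster is a stretch of RNA covered by overlapping reads, some of which carry the T-to-C change left by crosslinked 4-thiouridine. The 180358 clusters of the fluorescent library and the 14563 clusters of the T1 library were matched by hg38 position and strand. Clusters that overlapped by at least 1 nt were called partners, and overlapping clusters of both libraries were joined into 4655 shared sites. Gene and region came from the fluorescent cluster. Of the 2057 T1 clusters that had both a partner and a deposited gene name, only 586, or 28.5%, carried the gene of the partner.

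Both libraries came from Flp-In T-REx 293 cells, an established human embryonic kidney line, carrying a stably integrated transgene for FUBP3 with a FLAG-HA tag. The cells received 100 µM 4-thiouridine for 8 to 12 h and ultraviolet light of 312 or 365 nm at 0.3 J/cm2, and the protein was collected with anti-FLAG beads. The series also holds FUBP3 fluorescent libraries at 0.15 and 1.5 U/ul RNase I and libraries of other proteins, of which KHSRP, another KH-domain protein, was taken through both protocols in the same cell line. The RNase, the label, the 3′ adapter and the library preparation all changed together, so their parts in any difference cannot be told apart. Each of these conditions had 1 library, so no difference below has a replicate check, and intervals cover counting error only.

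FUBP3 belongs to the far upstream element binding protein family, whose KH domains hold short stretches of single-stranded nucleic acid rich in U and A. In PAR-CLIP, 4-thiouridine in the RNA crosslinks to the bound protein, and reverse transcription then reads the crosslinked base as C. RNase T1 cuts single-stranded RNA after G, whereas RNase I cuts after any base, so they leave different ends on the fragments around one protein.

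The ends and the inner G of the T1 fragments are seen in short T1 clusters that lay inside a fluorescent cluster. The following were taken from the deposited cluster sequences in T form. Capitals mark the T1 cluster, and lower case marks the 3 flanking bases on each side that the fluorescent cluster covered.

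ERC1 intron, chr12:1203949-1203977 (+): gagAAAATTATGTTTTAACATTTGAGaaa
HSP90B1 3′ UTR, chr12:103947820-103947848 (+): ttgAATTTTTTTTAACATTCCTCATGaat
TMED2 3′ UTR, chr12:123597895-123597924 (+): gagTTTTATATAATTAATTTAAATTTGtta
SCML1 3′ UTR, chrX:17754244-17754273 (+): tagTATTTTATATTTTATTCTCACCCGaag
MTHFD2 3′ UTR, chr2:74214310-74214339 (+): atgCAATATTTTTAATTTATTCTACTGaaa
TFAM 3′ UTR, chr10:58395685-58395714 (+): cagATTTATGCATATTATTTTATGTTGcat
DCK 3′ UTR, chr4:71030111-71030137 (+): ttgCTCTATATGTAATATATCCTGaaa

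Each of these T1 clusters followed a G and ended in one. In TMED2 the boundary fell inside the word TTGT, after its G, so the fluorescent cluster holds that word and the T1 cluster does not. The ERC1 cluster held 120 reads and the TMED2 cluster 48 reads in the T1 library. The 3′ adapters differed at the 4 bases in capitals.

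Fluorescent library, 3′ adapter: nnTGaCTgtggaattctcgggtgccaagg
T1 library, 3′ adapter: nnACaGAgtggaattctcgggtgccaagg

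The fluorescent library held many clusters that each rested on 1 sequence, and the T1 library few. Its 1975646 reads in clusters were 346500 distinct sequences, or 5.70 reads per sequence, and 71.9% of clusters rested on a single sequence. The T1 library held 179853 reads of 138886 distinct sequences, or 1.29 reads per sequence, and 2.42% of its clusters rested on a single sequence. No cluster in either file had fewer than 5 reads. The labels give no molecular identifiers, so reads of one sequence may be copies of one molecule, and distinct sequences are given beside reads.

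A sizeable minority of the T1 clusters were also present in the fluorescent library, but few of the fluorescent clusters were present in the T1 library. Of the T1 clusters, 5417, or 37.2% (Wilson 95% interval 36.4 to 38.0), had a fluorescent partner, and these held 55.1% of the T1 reads. Of the fluorescent clusters, 4882, or 2.71% (2.63 to 2.78), had a T1 partner, and these held 16.4% of the fluorescent reads. On the opposite strand only 27 T1 clusters, or 0.185%, met a fluorescent cluster.

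The share with a partner rose with depth in both directions. Of the 3495 T1 clusters with 5 reads, 17.1% had a fluorescent partner. Of the 1246 with 20 to 49 reads the share was 71.1%, and of the 87 with at least 100 reads it was 79.3% (69.6 to 86.5). Fluorescent clusters resting on 1 sequence had a T1 partner in 0.575% of 129623 cases. Those with at least 50 distinct sequences had one in 86.8% (81.9 to 90.5) of 242 cases. Clusters with a partner were also longer than those without. Their median lengths were 38 and 30 nt in the fluorescent library, and 24 and 22 nt in the T1 library. A longer cluster meets 1 nt of overlap more easily, and the part of length in the trend was not tested.

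**Figure D1:**
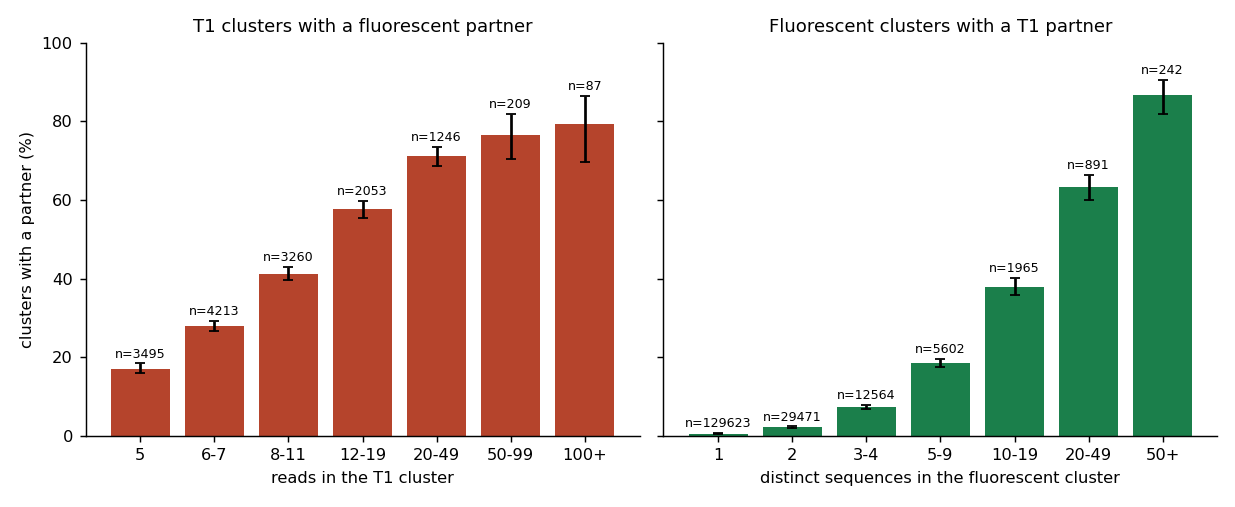
Share of T1 clusters with a fluorescent partner by reads in the T1 cluster (left) and share of fluorescent clusters with a T1 partner by distinct sequences in the fluorescent cluster (right), in percent, with Wilson 95% intervals and the number of clusters above each bar. The share runs from 17.1% to 79.3% on the left and from 0.575% to 86.8% on the right.

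The same T1 clusters were set against the other FUBP3 and KHSRP libraries. A partner was found for 35.2% of them at 0.15 U/ul RNase I and for 21.1% at 1.5 U/ul, where the fluorescent library held 79916 clusters. At least 1 of the 3 FUBP3 fluorescent libraries held a partner for 54.7%. The KHSRP T1 library, which shares the enzyme but not the protein, held a partner for 15.2% of the FUBP3 T1 clusters and 33.4% of their reads. Between the KHSRP T1 library and the KHSRP fluorescent library at 0.5 U/ul, 22.7% of T1 clusters had a partner. The libraries differ in depth, and no share was corrected for it.

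Of the 9146 FUBP3 T1 clusters without a fluorescent partner at 0.5 U/ul, 1187 overlapped a KHSRP T1 cluster. The remaining 7959, with 35.0% of the T1 reads, overlapped neither library.

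Shared sites lay mainly in 3′ untranslated regions, the part of an mRNA after the stop codon where many proteins that control decay and translation bind. Of the T1 clusters with a partner, 73.6% fell in a 3′ UTR, 14.1% in an intron and 2.09% in an exon of a long intergenic noncoding RNA, by the annotation of the partner. Of all fluorescent clusters, 18.9% fell in a 3′ UTR and 64.0% in an intron. Most of that contrast lay in fluorescent clusters of 1 or 2 sequences. Among fluorescent clusters of at least 3 distinct sequences, 63.1% fell in a 3′ UTR and 25.3% in an intron.

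**Figure D2:**
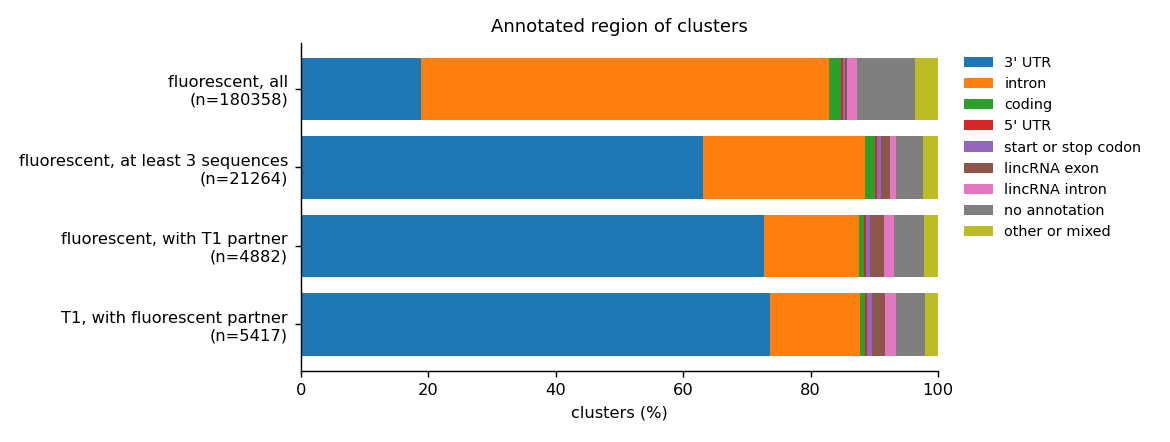
Annotated region of clusters as a share of all clusters in each set, in percent, for the whole fluorescent library, its clusters of at least 3 distinct sequences, its clusters with a T1 partner, and the T1 clusters with a fluorescent partner. The 3′ UTR share is 18.9%, 63.1%, 72.7% and 73.6%.

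At that same minimum of 3 sequences, 21.1% of 13428 fluorescent 3′ UTR clusters had a T1 partner, against 4.64% of 5385 intron clusters. The share was 32.6% of 276 exon clusters of long intergenic noncoding RNAs and 7.76% of 335 coding clusters. The mean depth per cluster differed between regions.

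Within the shared sites, T1 clusters were shorter and more numerous per site. The median T1 cluster was 23 nt long and the median fluorescent cluster 31 nt. For clusters with a partner these medians were 24 and 38 nt. T1 clusters covered 46.3% of the 319114 nt in shared sites and fluorescent clusters 88.6%. In the 128 sites of at least 200 nt there were on average 2.89 T1 clusters and 1.28 fluorescent clusters.

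The intron of ERC1, a gene for a scaffold protein of the secretory and presynaptic machinery, held the deepest sites named here. At chr12:1200834-1202410 (+), 1 fluorescent cluster of 1577 nt with 14781 reads faced 10 T1 clusters with 4884 reads. The T1 clusters ran from 23 to 420 nt and covered 69.7% of the site, and the longest held 55.9% of their reads. At chr12:1203354-1204421 (+), 1 fluorescent cluster of 1068 nt with 6751 reads faced 13 T1 clusters of 7 to 231 reads. No T1 cluster was longer than 90 nt there, and they covered 56.0% of the site.

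**Figure D3:**
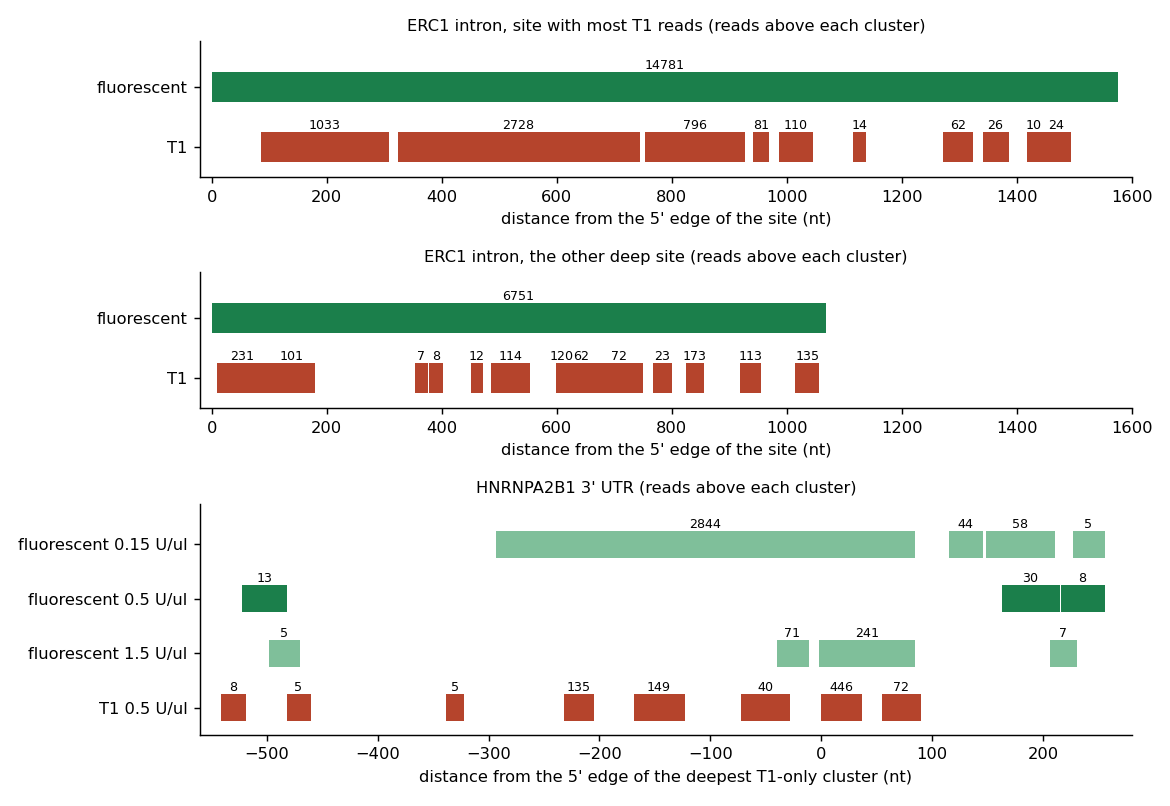
Clusters drawn to scale along the RNA, in nt from the 5′ edge of the site, with the reads of each cluster above it. In both ERC1 sites 1 fluorescent cluster (1577 and 1068 nt) faces 10 and 13 T1 clusters, and in the HNRNPA2B1 3′ UTR the T1 clusters up to 446 reads lie where the fluorescent library at 0.5 U/ul lists none and that at 0.15 U/ul lists 1 cluster of 2844 reads.

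T1 clusters mostly ended in G, the base after which RNase T1 cuts, and fluorescent clusters mostly did not. The last base was G in 96.4% of T1 clusters (96.1 to 96.7) and in 14.3% of fluorescent clusters (14.1 to 14.5). The fluorescent clusters ended most often in A, in 41.8%, and in C, in 27.8%, and in T in 16.1%. These bases made up 25.9%, 15.2% and 39.5% of the fluorescent clusters, and the cause of that difference was not tested. The KHSRP T1 library also ended in G, in 96.3% of clusters.

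For 2096 T1 clusters that lay wholly inside a fluorescent cluster, the bases just outside could be read from the fluorescent sequence. The base before the T1 cluster was G in 78.0% (76.1 to 79.7), and 75.4% had G both before the first base and as the last base. The base after the cluster was G in 17.6%, near the 16.8% of G over the whole of the containing fluorescent clusters.

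T1 clusters held little G inside. Without their last base, T1 clusters with a partner held 6.31% G and T1 clusters without one held 3.71%, and fluorescent clusters with a T1 partner held 16.4%. No G stood before the last base in 44.1% of T1 clusters, against 0.389% of fluorescent clusters. T made up 50.8% of bases in T1 clusters and 39.5% in fluorescent clusters.

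Fluorescent clusters with a longer run free of G more often had a T1 partner. This was counted in clusters of 30 to 40 nt with at least 3 distinct sequences, so that length differed little between bins. In 3′ UTRs, 6.71% of 1564 clusters whose longest run without G was at most 8 nt had a partner (5.58 to 8.06). The share was 12.4% at 9 to 12 nt, 16.2% at 13 to 16 nt, 25.1% at 17 to 20 nt, and 35.0% (29.0 to 41.7) of 214 clusters at 21 nt or more. In introns the share went from 2.13% of 894 clusters to 10.3% (5.54 to 18.5) of 87 clusters, with overlapping intervals between neighbouring bins. The T content moved with the run, from 39.3% to 45.3% in the 3′ UTR bins, and its part in the trend was not tested. The median number of distinct sequences was 4 in each of these 3′ UTR bins.

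Words with a G inside were found less often in the T1 clusters of a site than in its fluorescent clusters. Words were searched on the RNA strand only, and they can overlap each other. TGTA was present in the fluorescent clusters of 51.0% of the 4655 shared sites and in the T1 clusters of 27.7%. TTGT was present in 60.6% and 33.5%. TATA, which has no G, was present in 40.02% and 33.8%, and TTTTT in 39.0% and 34.7%. ATTTA, the core of AU-rich decay elements, was present in 22.3% and 19.5%. GGGG was present in 4.27% and 1.18%.

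Since T1 clusters are shorter, the words were also counted in the central 21 nt of each cluster. There TATA was held by 25.9% of T1 clusters with a partner and 18.5% of fluorescent clusters with one, the opposite order to that over whole sites. TGTA was held by 22.4% and 25.9%, and TTGT by 26.2% and 34.3%. As a background, the central 21 nt of 35116 RefSeq promoter windows (GRCh38.p14) held TATA in 2.57%, TGTA in 3.54% and TTGT in 5.25%. These promoter windows are not matched in base composition: they held GGGG in 13.6%, against 0.749% of T1 and 1.22% of fluorescent clusters with a partner. T1 clusters without a partner held TATA in 25.6% and TGTA in 13.5% of these windows.

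Some of the missing words were divided by the end of a T1 cluster. Of the 2096 contained T1 clusters, 9.45% had their 3′ end inside a TTGT of the fluorescent sequence and 6.92% inside a TGTA. The same was true of TATA for 0.239% and of TTTTT for 0.0477%. As 96.6% of these clusters ended in G, an end inside a word without G was nearly excluded beforehand. These low values are therefore no separate contrast. The starts of these clusters fell inside a TGTA in 7.87%, a TTGT in 7.20%, a TATA in 0.573% and a TTTTT in 1.34%. The base before was G in 78.0%, so the starts are bound in the same way, less strictly. The most frequent 4-letter words held no G in the T1 library, where TTTT was in 62.0% of clusters, ATTT in 60.8% and TTTA in 58.0%. In the fluorescent library the leading words were TTTT, in 41.1%, ATTT, in 40.4%, and TTTG, in 37.6%.

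**Figure D4:**
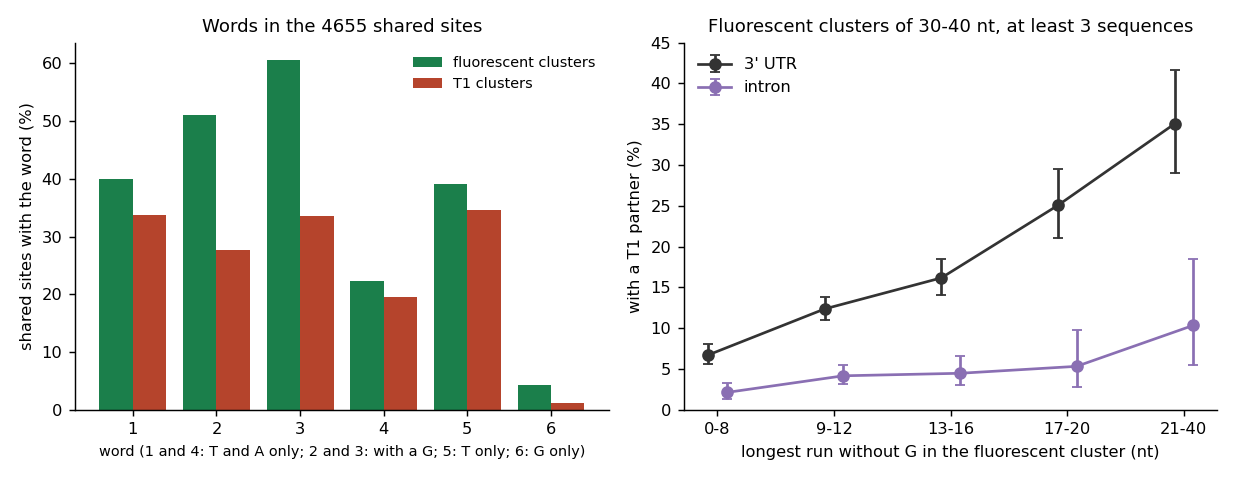
Left: share of the 4655 shared sites whose fluorescent or T1 clusters hold each word, in percent, in the order TATA (1), TGTA (2), TTGT (3), ATTTA (4), TTTTT (5) and GGGG (6). Right: share of fluorescent clusters of 30 to 40 nt with a T1 partner against the longest run without G, with Wilson 95% intervals, which goes from 6.71% to 35.0% in 3′ UTRs and from 2.13% to 10.3% in introns.

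T-to-C conversion differed in opposite directions over all clusters and over shared ones. Over all clusters, 82.9% of fluorescent reads and 76.1% of T1 reads carried a conversion. Over clusters with a partner, the shares were 59.0% of fluorescent reads (58.9 to 59.2) and 72.7% of T1 reads (72.4 to 73.0). In fluorescent clusters of 1 sequence 99.8% of reads were converted, and in those of at least 3 sequences 62.3% were. A cluster must hold converted reads, so the value for clusters of 1 sequence follows from the definition of a cluster. Such clusters held 46.0% of the fluorescent reads and 1.01% of the T1 reads, so the shares over all clusters are not a like comparison. The median cluster had 1 converted position in the fluorescent library and 3 in the T1 library.

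The mode position deposited for each cluster often differed between partners. Over 2825 partner pairs with a fluorescent cluster of at most 40 nt, the modes lay within 2 nt of each other in 11.2%, and the median distance was 13 nt.

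Reads at shared sites were summed per gene. A shared site fell in 2121 genes, or 17.8% of the 11883 genes with a fluorescent cluster, and 370 genes had at least 50 reads in each library. Each gene's reads were divided by all reads in clusters of that library, and the ratio of these shares was taken. By this measure 318 of the 370 genes, or 85.9%, had a T1 share at least 2-fold above the fluorescent share, and none, or 0%, the reverse. The minimum of 50 reads is a larger share of the 179853 T1 reads than of the 1975646 fluorescent reads. Genes with a low T1 share were thus left out more readily, so the lean of these counts was partly set by the filter. The median gene stood at -1.81 on the log2 scale of fluorescent over T1 (-1.65 by distinct sequences). That shift goes with the 55.1% of T1 reads and 16.4% of fluorescent reads that lay in clusters with a partner. Relative to the median gene, 49 genes, or 13.2%, leaned at least 2-fold toward T1 and 35, or 9.46%, toward fluorescence. Counted by distinct sequences these were 50 genes, or 13.5%, and 34, or 9.19%. Log2 ratios below are relative to this median, unless said otherwise.

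The order of genes by reads was similar but not the same. Across the 370 genes, Spearman's rho between fluorescent and T1 reads was 0.66, as a description over genes that share their libraries. It was 0.85 between the fluorescent libraries at 0.5 and 0.15 U/ul over the same sites, which were defined with the 0.5 U/ul library. Of the 20 genes with most reads in each library, 14 were common to both. When each library's reads were taken as a share of the 370 genes, the T1 share lay above all 3 RNase I doses for 145 genes (39.2%), below all 3 for 101 (27.3%) and within their range for 124 (33.5%).

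The genes with most T1 reads were mixed in their ratio. ERC1 held 22899 fluorescent and 6784 T1 reads over 41 sites and stood at 0.11. TMPO, which codes for the lamina-associated polypeptides, held 2322 and 713 reads and stood at 0.06. HNRNPA0, an RNA-binding protein of the hnRNP A/B family, held 2216 and 911 reads and stood at -0.37. All of these lay within 2-fold of the median gene.

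KLHL15, an adaptor of a ubiquitin ligase, held 3780 fluorescent and 709 T1 reads and stood at 0.77. PMAIP1, which codes for the cell death protein NOXA, held 5643 and 662 reads and stood at 1.44, past 2-fold toward fluorescence. Its rank by reads was 3 in the fluorescent library and 7 in the T1 library. MTHFD2, a mitochondrial folate enzyme, held 1479 and 933 reads and stood at -0.98, just inside 2-fold. ARL6IP1, an endoplasmic reticulum shaping protein, held 534 and 502 reads and stood at -1.56.

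The genes furthest toward fluorescence were mRNAs. IRF2BP2, a transcriptional corepressor, held 1203 fluorescent and 66 T1 reads and stood at 2.54. The counting interval on its distinct sequences, 255 and 59, was 2.03 to 2.88. ZNF711, a zinc finger protein, held 2690 and 155 reads and stood at 2.47, with 536 and 123 distinct sequences. At 0.15 and 1.5 U/ul RNase I the same ZNF711 sites held 2637 and 932 reads.

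SAT1, the polyamine acetylating enzyme, held 997 fluorescent and 62 T1 reads and stood at 2.36. H3F3B, which codes for histone H3.3, held 1660 and 108 reads and stood at 2.29. RAN, the GTPase of nuclear transport, held 973 and 65 reads and stood at 2.26. The other 5 genes were HNRNPAB (2.24), ACTG1 (2.02), JUN (1.79), UBQLN2 (1.78) and BRI3BP (1.77). In 9 of these 10 genes over 90% of the T1 reads lay in 3′ UTR sites, and SAT1 was the exception with 11.3%. The same held for 291, or 78.6%, of all 370 genes.

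The genes furthest toward T1 included transcripts of the mitochondrial genome and noncoding RNAs. CENPK, a centromere protein, held 50 fluorescent reads of 9 distinct sequences and 95 T1 reads of 77 distinct sequences, and stood at -2.57. Its counting interval by distinct sequences was -3.95 to -1.76. FGD5-AS1, an antisense noncoding RNA, held 62 and 99 reads and stood at -2.32. MT-ND1, a subunit of respiratory complex I, held 52 and 72 reads and stood at -2.12.

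MT-ND4L, another complex I subunit, held 303 and 392 reads and stood at -2.02. MBNL1, the muscleblind splicing regulator, held 211 and 238 reads over 6 sites and stood at -1.82. JPX, a noncoding RNA of the X inactivation centre, held 527 and 544 reads over 27 sites and stood at -1.69. CTC-444N24.11, a transcript known by its clone name, held 605 and 609 reads over 12 sites and stood at -1.66. ZFX (-2.02), DEPDC1 (-1.88) and EPHA7 (-1.77) completed the 10. All 10 had a T1 share above all 3 RNase I doses, beside 145, or 39.2%, of all 370 genes. The 10 were picked by their ratio to the middle dose, so lying above that dose follows from the choice. The other doses gave a gene order similar to it (Spearman's rho 0.85 and 0.79), so this is not an independent check. ZFX, EPHA7 and CENPK rested on 9 or 10 distinct fluorescent sequences.

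These ratios count reads at shared sites only, and some depend on that. For most members of the gene lists below, no value over all fluorescent clusters is given. With all fluorescent clusters of a gene counted, the median gene stood at -0.63, and of the 10 genes EPHA7 turned to 1.01 relative to it. CENPK (-0.58), ZFX (-0.64) and MBNL1 (-0.84) then lay within 2-fold of the median, while the other 6 stayed past 2-fold toward T1. Of the genes toward fluorescence, JUN (0.98), BRI3BP (0.89) and PMAIP1 (0.30) then lay within 2-fold. ERC1 (-0.77) and TMPO (-0.74) then stood below the median and KLHL15 at -0.07, and MTHFD2 (-1.99) and HNRNPA0 (-1.28) were past 2-fold toward T1.

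**Figure D5:**
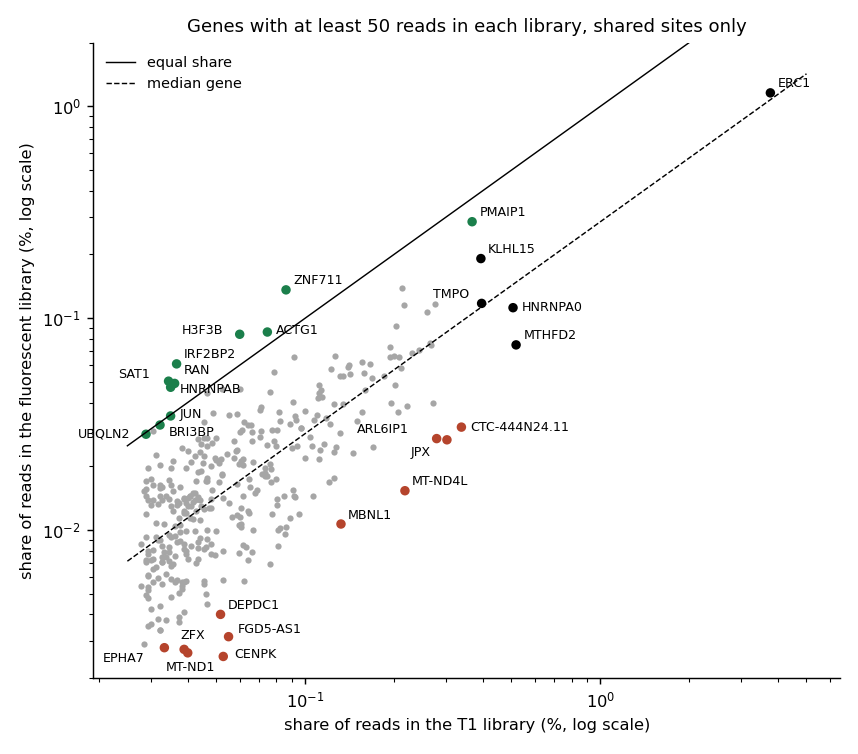
Share of reads per gene at shared sites in the T1 library (x axis) and the fluorescent library (y axis), in percent on log axes, for the genes with at least 50 reads in each, 1 point per gene. Green and red mark the named genes at least 2-fold to either side of the median gene (dashed line, -1.81 on the log2 scale); most points lie under the line of equal share.

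Genes were also grouped by what they code for. For scale, 17.8% of the 11883 genes with a fluorescent cluster had a shared site, and 370 of them had enough reads. Of 24 mRNAs for hnRNP proteins, which package and splice nascent RNA, 22 had a fluorescent cluster, 19 a shared site and 11 enough reads. Of these 11, 3 leaned at least 2-fold toward fluorescence and 1 toward T1, beside 9.46% and 13.2% of all 370 genes, and their median was 0.67. HNRNPAB (2.24), HNRNPA1 (1.16) and HNRNPM (1.06) were past 2-fold. PTBP2, the neuronal splicing repressor, held 71 fluorescent and 54 T1 reads and stood at -1.25. Only 4.28% of its fluorescent reads lay in shared sites, against 95.2% for HNRNPAB.

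Of 17 mRNAs for SR and related splicing proteins, all had a fluorescent cluster, 15 a shared site and 6 enough reads. All 6 stood above the median gene, which splits the 370 genes evenly. Their median was 0.58, and 2 were past 2-fold, beside 9.46% of all 370 genes. Members with a shared site but fewer reads lay on both sides. On the plain log2 scale SRSF3 stood at -0.69 and SRSF8 at -3.09, against -1.81 for the median gene. TRA2B, a splicing activator, held 577 and 55 reads and stood at 1.74, and SRSF11 held 912 and 108 reads and stood at 1.43. SRSF2 held 2306 and 494 reads and stood at 0.58. SON, a nuclear speckle scaffold, held 1194 and 254 reads and stood at 0.59.

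Of 18 mRNAs for KH-domain proteins, including FUBP3 and its relatives, 17 had a fluorescent cluster, 11 a shared site and 4 enough reads. All 4 stood below the median gene, which splits the 370 genes evenly, with a median of -0.68. Members with a shared site but fewer reads lay on both sides. On the plain log2 scale PCBP2 stood at 0.007 and FMR1 at -3.97, against -1.81 for the median gene. Of the fluorescent reads of FUBP1, FUBP3 and QKI, only 22.7%, 21.2% and 30.6% lay in shared sites. The lean of these 4 genes thus holds for shared sites only. FUBP1 held 190 fluorescent and 154 T1 reads and stood at -1.34, the only one past 2-fold, beside 13.2% of all 370 genes. FUBP3 itself held 153 and 86 reads at -0.82. KHSRP held 107 and 50 reads at -0.55, and QKI held 387 and 132 reads at -0.10. The FUBP3 transgene, where its transcript carries the coding sequence, cannot be told from the endogenous gene in these counts.

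Of 15 names for long noncoding RNAs, 11 had a fluorescent cluster, 8 a shared site and 4 enough reads. LINC00657, also called NORAD and known to bind Pumilio proteins, held 2110 and 464 reads and stood at 0.54. NEAT1, the scaffold of paraspeckles, held 159 and 55 reads and stood at -0.12. FTX stood at -1.01 and JPX at -1.69, both past 2-fold toward T1, beside 13.2% of all 370 genes. These ratios hold for shared sites only, which took 16.4% of FTX's fluorescent reads, 33.6% of JPX's and 11.5% of NEAT1's. For LINC00657 that share was 69.9%. With all fluorescent clusters JPX stood at -1.30, and no such value is given for the other 3. GAS5 had 18 fluorescent and 483 T1 reads and so fell short of the minimum in the fluorescent library.

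The 4 other lists gave few or no measured genes. HMGB2, a chromatin protein, held 1359 fluorescent and 413 T1 reads in 1 site and stood at 0.07, the only measured gene of 10 HMG mRNAs. Of 17 RNA helicase mRNAs, DDX21 stood at 0.43 and DDX5 at -0.40. Of 77 cytoplasmic ribosomal protein mRNAs, 59 had a fluorescent cluster and 4 a shared site, and none had enough reads. Of 19 mRNAs of receptor and insulin signalling, 16 had a fluorescent cluster and 4 a shared site, and none had enough reads. Beside these counts, 17.8% of all 11883 genes with a fluorescent cluster had a shared site and only 370 had enough reads. The lack of measured members in lists of this size is therefore no result about them. ERBB4, a receptor tyrosine kinase, had 3245 fluorescent reads in 389 clusters, of which 298 rested on 1 sequence, and 1.33% of those reads lay in shared sites.

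The same comparison could be made for KHSRP in its own libraries, which share none with FUBP3. There 140 genes had at least 50 reads in each library, and the median gene stood at -1.80 on the log2 scale of fluorescent over T1. For the 62 genes measured with both proteins, Pearson's r between the log2 ratios was 0.57 and Spearman's rho 0.49, as a description across genes. Of these, 44 stood on the same side of the median for both proteins. CENPK stood at -2.57 for FUBP3 and -1.03 for KHSRP, each relative to its own median. Other genes stood on opposite sides, such as UBA2 at -1.39 for FUBP3 and 0.83 for KHSRP, and NUP153 at -1.03 and 0.81.

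Single sites were compared in the same way. Of 246 sites with at least 50 reads in each library, 33, or 13.4%, leaned at least 2-fold toward T1 and 44, or 17.9%, toward fluorescence, relative to the median site at -2.07. By plain share of reads, 209 sites, or 85%, leaned toward T1 and none, or 0%, toward fluorescence. The same minimum of 50 reads left out sites with a low T1 share more readily, as for genes. The 2 deep ERC1 sites stood apart from each other. The site with 14781 fluorescent and 4884 T1 reads stood at 0.21, and that with 6751 and 1171 reads stood at 1.14.

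The MTHFD2 3′ UTR site, chr2:74214790-74215066 (+), held 996 fluorescent and 833 T1 reads and stood at -1.13. The HNRNPA0 3′ UTR site, chr5:137752103-137752790 (-), held 1595 reads in 2 fluorescent clusters and 544 reads in 10 T1 clusters and stood at 0.16. The ARL6IP1 3′ UTR site, chr16:18791839-18792119 (-), held 442 and 463 reads and stood at -1.46. HMGB2 (0.33) and SDE2 (-0.11), both in the 3′ UTR, and MT-ND3 (-0.55) lay within 2-fold.

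Among the sites with most T1 reads, 1 was nearly empty in the fluorescent library. At chr1:173864359-173864446 (-), within GAS5 and over the gene of the small nucleolar RNA SNORD47, the T1 library held 456 reads of 332 distinct sequences. The fluorescent library held 12 reads of 2 distinct sequences there, the library at 0.15 U/ul held 7 reads, and those at 1.5 U/ul and of KHSRP T1 listed none. Small nucleolar RNAs of this kind guide 2′-O-methylation of ribosomal RNA.

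Small nucleolar RNA genes held a larger share of the T1 library in sum. Clusters over RefSeq snoRNA genes, counted on either strand, held 2040 T1 reads, or 1.13%, and 521 fluorescent reads, or 0.0264%, a ratio of 43.0. At 0.15 and 1.5 U/ul RNase I the shares were 0.0180% and 0.0359%, and in the KHSRP T1 library 0.154%. The KHSRP fluorescent libraries held 0.190%, 0.0887% and 0.300% at 0.15, 0.5 and 1.5 U/ul, so for KHSRP the T1 share lay within their range. The number of such clusters was 51 in the T1 library and 50 in the fluorescent one. Of the 47 snoRNA genes with a T1 cluster, 16 also had a fluorescent cluster. SNORD54 held 217 T1 reads and none in the 3 fluorescent libraries, and SNORD81 held 101 T1 reads and 6 fluorescent reads.

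Mitochondrial RNA also held a larger share of T1 reads. Clusters on the plus strand of the mitochondrial genome, which reads as most of its mRNAs, made up 0.948% of the T1 library's reads, against 0.159% in the fluorescent library. On the minus strand the shares were 0.719% and 0.116%. At 0.15 and 1.5 U/ul RNase I the plus-strand shares were 0.106% and 0.0942%, and the minus-strand shares 0.214% and 0.261%. In the KHSRP T1 library they were 2.64% and 0.526%.

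Deep clusters without a partner occurred on both sides. Of 296 T1 clusters with at least 50 reads, 67 had no fluorescent partner at 0.5 U/ul. Of these 67, 41 had a partner at 0.15 or 1.5 U/ul RNase I, 42 had one in the KHSRP T1 library, and 9 had none in the other 7 libraries of these proteins.

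The deepest such cluster lay in the 3′ UTR of HNRNPA2B1, an hnRNP protein known for sorting and methylation-linked processing of RNA, at chr7:26191901-26191937 (-). It held 446 T1 reads of 353 distinct sequences. Over the window chr7:26191841-26192177 the T1 library held 5 clusters with 842 reads, and the fluorescent libraries at 0.15 and 1.5 U/ul held 2844 and 312 reads. The fluorescent file at 0.5 U/ul listed no cluster there. Whether that file lacks the reads or only the cluster call was not tested. In shared sites HNRNPA2B1 counted 103 fluorescent and 45 T1 reads, so it was not among the measured genes.

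The others of the 5 deepest were 3 stretches of the mitochondrial minus strand and a 3′ UTR cluster of RNPS1, which codes for a component of the exon junction complex. The mitochondrial clusters held 382, 306 and 299 T1 reads, and the second lies in ND6, a complex I subunit coded on that strand. At 0.15 U/ul, 1 fluorescent cluster of 2169 reads covered both others. The RNPS1 cluster held 251 T1 reads and is shown with its last base in capitals. The fluorescent libraries held 144 reads there at 0.15 U/ul and 89 at 1.5 U/ul.

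RNPS1 3′ UTR, chr16:2253217-2253243 (-): tcagtactataaaatttctcttttgaG

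On the fluorescent side, 32 of the 242 clusters with at least 50 distinct sequences had no T1 partner. The deepest lay in RP6-24A23.7, a transcript on the X chromosome, with 2005 reads of 408 distinct sequences over 420 nt. The T1 library listed none there, while the fluorescent libraries held 1466 reads at 0.15 U/ul and 583 at 1.5 U/ul. A mitochondrial minus-strand cluster held 941 reads, with 13 at 0.15 U/ul and none at 1.5 U/ul, and 33.1% of its bases were G.

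The other 3 lay in 3′ UTRs. TSC22D3, the glucocorticoid-induced leucine zipper, held 896 reads in a cluster of 151 nt with 29.1% G and a longest run without G of 11 nt. OAZ1, the ornithine decarboxylase antizyme, held 836 reads in 67 nt with 19.4% G. IRF2BP2 held 751 reads in 237 nt with 16.9% G, beside the shared sites counted above. All 3 were also present at 0.15 and 1.5 U/ul.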

How the data were processed

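Per the submitters' processing notes, reads were handled with bcl2fastq 2.20.0 and cutadapt 1.15 and placed on hg38. No aligner, cluster caller, annotation or removal of duplicate reads is given in the sources used here. Per library, the authors deposited 1 cluster table, with a read count, a count of distinct sequences, counts of T-to-C reads and the T-to-C fraction and end-in-G fraction of each cluster. The deposited fraction values were used only for T-to-C medians and a check of the ends. All 189 clusters of both libraries inside RefSeq promoter windows had the sequence of GRCh38.p14 at their position.

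Clusters were matched with Python 3.11, numpy and pandas, on the same strand and over at least 1 nt. Joining and ratios were tested on simulated data. Ratios used shares of all reads in clusters, for genes and sites with at least 50 reads in each library, and a gene counted as apart past 2-fold. Shares have Wilson 95% intervals and ratios exact binomial intervals on distinct sequences, for counting error only. With 1 library per condition no p-value was computed. Named were the 10 genes furthest to each side, the 10 genes and 10 sites with most T1 reads, the 5 deepest clusters without a partner on each side, and the measured members of 8 gene lists. 1 gene and 1 site selected by this rule are not reported here, and they stay in the counts. The members and lists were chosen with earlier results of these data known. Alternatives for overlap, depth, scaling, gene names and word windows are given in the closing section.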

Additional observations from a re-analysis of the deposited data

How the results depend on the processing

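No paired analysis was possible because each condition compared here had 1 library, and no replicate could be left out. No direction between the libraries turned in the overlap, the nuclease ends or the plain-share counts, but the sizes moved, and the cause was not tested. Under median-of-ratios scaling, which is not a plain share, the site counts turned from T1 to fluorescence. T1 clusters with a partner (37.2%) became 11.5% when 50% of each cluster had to overlap, 30.0% with at least 3 distinct sequences in both, 55.0% with at least 10 reads, and 24.7% with as many fluorescent clusters as T1 has. Fluorescent clusters with a partner (2.71%) became 0.933%, 16.3%, 4.63% and 20.7%. The 3′ UTR share of shared T1 clusters (73.6%) became 66.5% by reads, 81.2% with 3 sequences and 69.8% with regions from the 3 doses. That of unshared fluorescent clusters (17.4%) became 29.3% by reads and 59.6% with 3 sequences. Genes toward T1 (318 of 370) became 49 of 370 with median-of-ratios scaling, 1137 of 1378 at 10 reads and 60 of 64 at 200 reads. They became 119 of 376 with all fluorescent clusters of the gene and 119 of 185 with deposited T1 names. Genes toward fluorescence (0) became 35, 7, 0, 6 and 7. Sites toward T1 (209 of 246) became 33 of 246 with median-of-ratios scaling and 1798 of 2243 at 10 reads. Sites toward fluorescence (0) became 44 and 19. Weighted by reads, last base G was 97.5% in T1 and 13.5% in fluorescent clusters (12.4% with 3 sequences). T-to-C over the median cluster was 83.3% in T1 and 100% in fluorescence, and over shared sites 72.7% and 59.0%. In fixed windows TGTA was 16.8% in T1 and 19.0% in fluorescent clusters, and TATA 25.7% and 13.3%. With 3 sequences fluorescent TGTA was 43.0% and TATA 27.5%. The next values cover genes named as furthest to a side or by most T1 reads, not the other list members. Those other members may change too, as only 4.28% of PTBP2's fluorescent reads and 11.5% of NEAT1's lay in shared sites. Among the genes covered and past 2-fold by plain share, EPHA7 changed sign (0.38) with all fluorescent clusters. Median scaling adds one constant to every gene, so ERC1 (0.11), TMPO (0.056) and KLHL15 (0.77) changed sign by construction. Of the covered genes under 2-fold by plain share, JUN, UBQLN2 and BRI3BP changed sign under both settings and by distinct sequences, and PMAIP1 with median scaling. Relative to its own median, a setting added after seeing the data, all fluorescent clusters put EPHA7 at 1.01. Clusters of few reads and 1 library per condition limit every value.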

Other observations

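The end-in-G fraction deposited with the T1 clusters differed by strand. Weighted by reads it was 97.1% on the plus strand and 1.60% on the minus strand, while the last base of the deposited sequence was G in 96.0% and 97.0% of clusters. The KHSRP T1 file showed the same split, with 96.8% and 1.46%. The values above were therefore read from the sequences.

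A deep mitochondrial minus-strand cluster was listed at one RNase I dose and hardly at the others, with 941 reads at 0.5 U/ul, 13 at 0.15 U/ul and none at 1.5 U/ul. The cause was not tested.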
